A study of Homo sapiens with 4 samples.

Results

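The microRNAs hsa-miR-21-5p and hsa-miR-31-5p are commonly raised in colorectal tumours, and their levels were examined in 2 subpopulations of one colon cancer cell line. They were chosen by name, as 2 of the 851 human miRNAs on the array, and no measured value is part of that rule. Earlier results of these data were, however, known when they were chosen. The study asked which miRNAs differ between cells that migrate readily and cells that do not. Both groups came from HCT116, an established colorectal carcinoma line that carries wild-type p53. The MG (migrated) cells were those that repeatedly crossed the membrane of a transwell chamber towards serum, and the non-MG cells were those that repeatedly stayed on top of it. The labels name no agent or genetic change in either group, and each is a selected population of 1 line. Total RNA of 2 samples per group was labelled with Cy3 and hybridised to a 1-colour Agilent human miRNA array. The sources do not say whether the replicates were separate cultures, so the p-values measure the spread between arrays, which may be technical. The limma test used for single miRNAs pooled this spread over all miRNAs tested, so it is not the spread of the miRNA named.

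A miRNA is cut from a hairpin precursor, and one arm of the hairpin is loaded into an Argonaute protein, where the seed near its 5′ end pairs with target mRNAs and lowers their output. miR-21 is a widely expressed oncogenic miRNA that represses tumour suppressors such as PDCD4. miR-31 is a miRNA of epithelial cells that represses regulators of RAS signalling, and it is high in a subset of colorectal tumours. The RefSeq sequences of both members are shown, with the seed (bases 2 to 8) in capitals, because the seed decides which mRNAs each can pair with.
hsa-miR-21-5p: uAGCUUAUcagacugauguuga
hsa-miR-31-5p: aGGCAAGAugcuggcauagcu
In assembly GRCh38.p14 the first lies at chr17:59841273-59841294 on the plus strand, in the MIR21 hairpin of 72 bases, which overlaps the protein-coding gene VMP1. The second lies at chr9:21512158-21512178 on the minus strand, in the MIR31 hairpin of 71 bases, which overlaps the long non-coding RNA gene MIR31HG. The 2 members share no seed. They also differ in base composition, with 8 G or C bases of 22 in miR-21-5p and 11 of 21 in miR-31-5p. Among the RefSeq mature miRNAs, 1 other carries the seed of miR-21-5p, and it is shown for comparison.
hsa-miR-590-5p: gAGCUUAUucauaaaagugcag
On these arrays hsa-miR-590-5p was detected on 2 of 4 arrays with a highest unscaled signal of 4.69, against 1393 to 1793 for miR-21-5p.

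Each array measured 939 miRNAs, and between 117 and 133 human miRNAs were detected per array. All arrays lay on 1 slide, where non-MG samples filled row 1 and MG samples row 2, and this position cannot be told apart from the group. Epithelial identity was checked against marker miRNAs. All 5 members of the miR-200 family, which marks epithelial cells, were detected on 4 of 4 arrays, whereas the other colon markers miR-192-5p, miR-194-5p and miR-215-5p were detected on 0. None of the 5 blood cell markers was detected on any array, and 1 of the 5 fibroblast and smooth muscle markers was detected on at least 1 array. The summed scaled signal of the fibroblast and smooth muscle list was 6.52 and 9.67 in the non-MG replicates, against 4.74 and 0.509 in the MG replicates. Only miR-145-5p of this list was detected, on 3 arrays with at most 8.76 unscaled. The 0.509 is made of the values given to undetected miRNAs, and the blood cell list had the same sum on that array. The sum of the epithelial list was 730 and 670 in the non-MG replicates, against 651 and 631 in the MG replicates. The epithelial sum was thus lower on the MG arrays, while the fibroblast and smooth muscle sums are too near the limit of detection to compare. Of the 3 epithelial members bright enough to be tested, only miR-141-3p had groups that did not overlap (log2 change -0.39, adjusted p = 0.0411, limma). The groups of miR-200b-3p (-0.03) and miR-200c-3p (-0.06), the brightest of the list, overlapped. For 40.4% of all 57 human miRNAs tested the groups did not overlap, with MG lower. The part of these lists in the results was not tested. A signal here is the summed brightness of the detected probes of a miRNA, and scaled signals give every array the same 75th percentile, taken over 116 miRNAs that all 4 arrays detected. The signal of a miRNA depends on its probes as well as on its amount, so ranks and shares describe signals.

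miR-21-5p gave one of the strongest signals in both groups, and no difference between MG and non-MG cells was detectable. Its scaled signals were 1557 and 1650 on the non-MG arrays. On the MG arrays they were 1765 and 1418. The MG arrays lay on either side of both non-MG arrays, so the groups overlapped. The means were 1592 ± 245 for MG and 1604 ± 65.2 for non-MG cells (SD, n = 2 each). The fold change of MG over non-MG was 0.987, and its log2 value was -0.02 ± 0.15 (SE), with a 95% confidence interval from -0.32 to 0.28 and an adjusted p = 0.993 by limma. In linear terms the interval ran from 0.803 to 1.21, so a change of either size is still compatible with these 4 arrays. The sign turned in 5 of 21 alternatives, with values up to 0.14, and quantile normalization called miR-21-5p lower (log2 change -0.13, adjusted p = 0.00572, limma). Quantile normalization gives equal ranks equal values, and miR-21-5p ranked 2 on both non-MG arrays and 3 on both MG arrays. That call therefore restates the shift in rank, and its p-value reflects no spread of miR-21-5p between arrays.

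Among the detected human miRNAs, miR-21-5p ranked 2 on both non-MG arrays and 3 on both MG arrays. It took 7.85% and 8.11% of the summed human signal on the non-MG arrays. On the MG arrays it took 8.63% and 7.56%. Both entries above it in mean signal, miR-923 and miR-720, carry a version suffix in the scanner files, and both have since been withdrawn from miRBase as fragments of other RNAs. Among the tested entries without such a suffix, miR-21-5p had the highest mean signal. The shift in rank came with miR-720, whose scaled signals were 1553 and 1431 in the non-MG replicates, against 1987 and 1562 in the MG replicates, a change that was not called (adjusted p = 0.237, limma). The ranges of miR-21-5p (1418 to 1765) and miR-720 (1431 to 1987) overlapped, so their order is not resolved. The entry directly below, let-7a-5p, had its highest signal of 1414 just under the lowest of miR-21-5p. After let-7a-5p, the next entry was let-7f-5p.

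**Figure D1:**
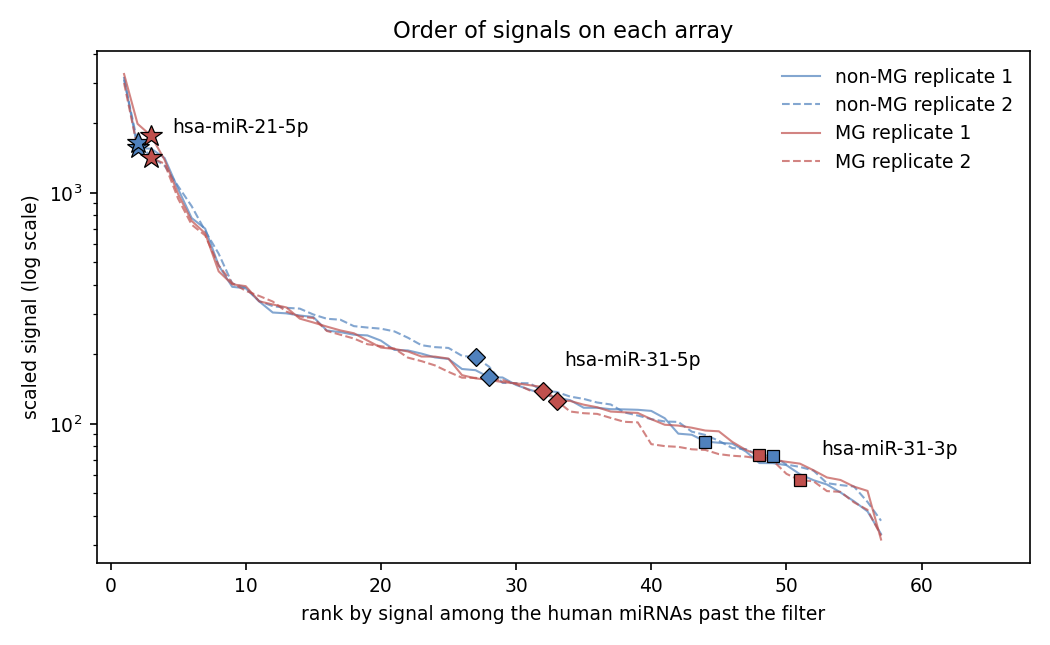
Scaled signal (log axis) against rank among the 57 human miRNAs past the filter, 1 line per array (blue non-MG, red MG, solid replicate 1, dashed replicate 2), with stars for miR-21-5p, diamonds for miR-31-5p and squares for miR-31-3p. The stars stand at ranks 2 and 3 on the steep left end, and the diamonds at ranks 27 to 33 in the middle of the curve.

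miR-31-5p gave a moderate signal that was lower in MG cells. Its scaled signals were 159 and 194 on the non-MG arrays. On the MG arrays they were 126 and 138, both below the non-MG arrays. The means were 132 ± 8.65 for MG and 177 ± 24.7 for non-MG cells (SD, n = 2 each). The fold change was 0.750, and its log2 value was -0.42 ± 0.15 (SE), with a 95% confidence interval from -0.71 to -0.12 and an adjusted p = 0.0313 by limma. Its size was below a change of 1.5-fold in either direction. In bulk RNA, fewer cells that carry the miRNA and less of it per cell cannot be told apart. miR-31-5p was thus 1 of 8 human miRNAs called lower, out of the 57 that reached an unscaled signal of 50 on at least 1 array and were tested. That background is 14.0%, and 24.6% were called in either direction. The split of calls moved with the scaling, from 8 lower of 14 as reported to 4 lower of 11 with median scaling, 5 lower of 11 with quantile normalization and 3 lower of 6 without normalization. The groups did not overlap, with MG lower, for 40.4% of the 57, and the median log2 change of all 57 was -0.08.

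The call of miR-31-5p depended on the settings. Leaving out an array leaves 1 group with a single array, which is then assumed to vary like the other group, and ended the call in 3 of 4 cases by limma, with an adjusted p = 0.0634 when non-MG replicate 1 was dropped, 0.349 for non-MG replicate 2 and 0.134 for MG replicate 1. It was also lost with the labels' replicate number as a block (adjusted p = 0.0511) and under median scaling (adjusted p = 0.0584), both by limma. The direction of the change held in all 21 alternatives run, but not all of these could have turned it. Changing only the filter, floor, variance model, test or block leaves the value as it was. Leaving out 1 array cannot turn the sign where the groups do not overlap. limma gave every miRNA the same pooled spread, and the exact permutation test over the arrays gave a two-sided p = 0.333, the smallest that 2 arrays against 2 allow.

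**Figure D2:**
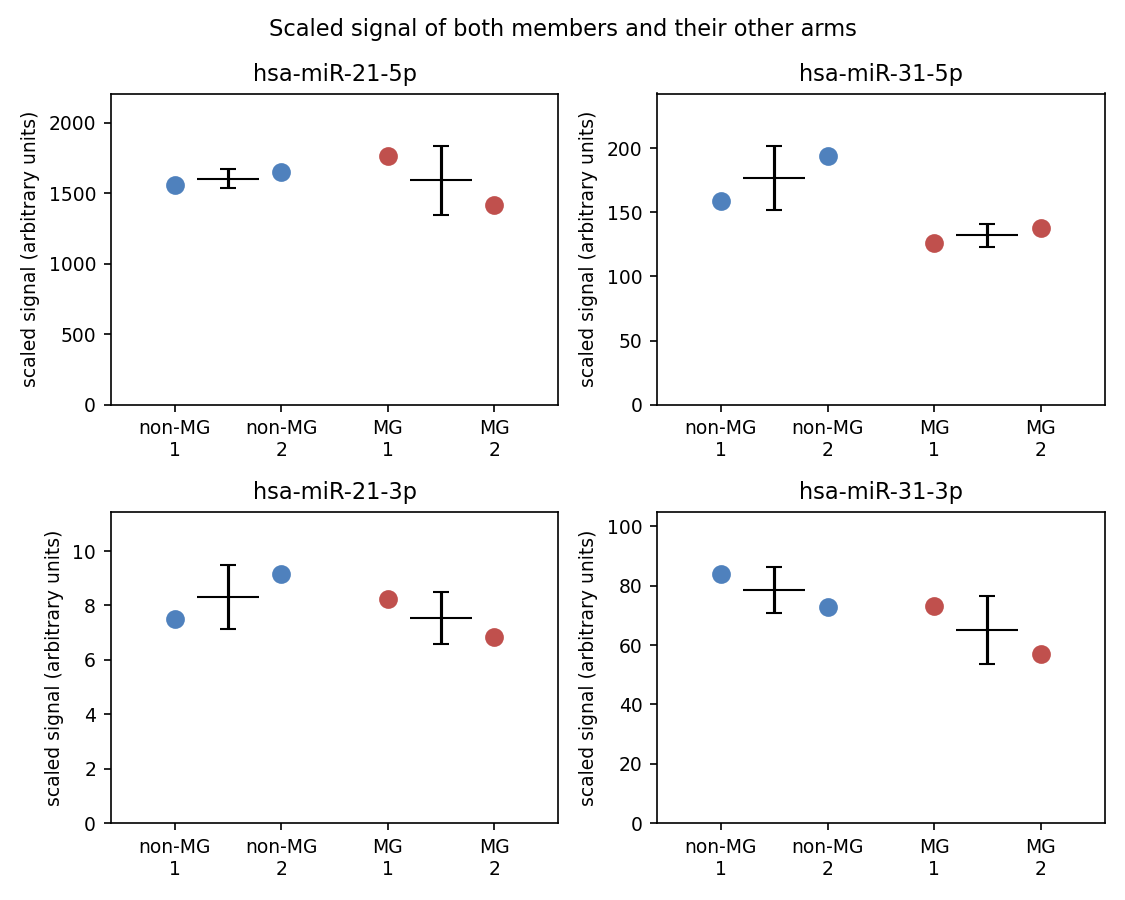
Scaled signal per array, in arbitrary units from 0, of both members (top) and of the other arms of their hairpins (bottom), with blue points for non-MG and red points for MG arrays and black bars for the mean ± SD (n = 2). The MG points of miR-31-5p (126 and 138) lie below its non-MG points (159 and 194), while those of the other 3 arms do not all lie on one side.

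The rank and share of miR-31-5p come from the same signals, so their lower values in MG cells restate that change and add no separate support. It ranked 28 and 27 in the non-MG replicates, against 33 and 32 in the MG replicates. Its share of the summed human signal was 0.802% and 0.954% in the non-MG replicates, against 0.616% and 0.736% in the MG replicates. Its place in the order of mean signals was between let-7e-5p and miR-27a-3p. The ranges of let-7e-5p (141 to 168) and miR-27a-3p (130 to 177) both lay within that of miR-31-5p (126 to 194), so none of these neighbours differed beyond their spread.

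The ratio of the members within an array does not depend on a scaling factor. miR-21-5p gave 9.78 and 8.49 times the signal of miR-31-5p on the non-MG arrays. On the MG arrays the ratios were 14.0 and 10.3, both above the non-MG arrays. The log2 ratio was 3.59 ± 0.318 for MG and 3.19 ± 0.144 for non-MG cells (SD, n = 2 each). The difference was 0.40 on the log2 scale, a factor of 1.32, with p = 0.333 by a two-sided exact permutation test, again the smallest possible. That the members changed differently was therefore not shown. The groups overlapped (p = 0.667, exact permutation test) with normexp background correction, with the brightest probe only and with the median over spots, the last chosen after the data had been seen.

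Every member was measured by 2 probes of 8 spots each, and all 16 spots of each member were well above background on every array. The probes of miR-31-5p had the same direction but unequal size. Its brighter probe had scaled signals of 119 and 135 in the non-MG replicates, against 99.9 and 110 in the MG replicates, a fold change of 0.830. Its dimmer probe had 40.7 and 59.1 in the non-MG replicates, against 25.9 and 27.7 in the MG replicates, a fold change of 0.547. In both probes the groups did not overlap. The brighter probe alone gave no call (adjusted p = 0.190, limma), whereas the dimmer probe alone gave one (adjusted p = 7.7e-06, limma). Both p-values use the spread pooled over the miRNAs tested, so neither measures how far that probe itself varied between arrays. The ratio of brighter to dimmer probe was 2.91 and 2.29 in the non-MG replicates, against 3.85 and 3.98 in the MG replicates.

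The probes of miR-21-5p differed in sign, and neither separated the groups. The brighter one had a fold change of 1.02, with scaled signals between 1043 and 1340 over the 4 arrays. The dimmer one had a fold change of 0.90, with signals between 376 and 521. Their ratio lay between 2.17 and 3.15.

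Single spots of a probe differed widely on some arrays. Spot signals were deposited on another scale than probe signals, and they are compared only with each other. For the brighter probe of miR-31-5p on non-MG replicate 2, the scaled spot signals ran from 66.9 to 337 around a median of 324, and none of the 8 spots was marked as an outlier. On non-MG replicate 1 the same probe ran from 206 to 238, and on MG replicate 1 from 176 to 211. On both replicate 2 arrays the signal of this probe differed by the column of the spot. On non-MG replicate 2 it was 66.9 to 219 at columns 10 to 34, against 322 to 337 at columns 56 to 73. On MG replicate 2 it was 148 to 165 at columns 10 to 34, against 224 to 261 at columns 56 to 73. The cause was not tested. The dimmer probe of miR-31-5p kept only 4 of 8 spots on non-MG replicate 2 after outlier marks, against 6 to 8 on the other arrays. The coefficient of variation over the spots kept was 2.10% to 43.6% for the probes of miR-31-5p and 4.32% to 48.6% for those of miR-21-5p.

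The layout is the same on all arrays, so spots were also compared at equal positions. For miR-31-5p the MG mean was lower at 14 of 16 positions, with a median fold change of 0.753 and a range from 0.359 to 1.45. The MG mean was higher at 2 positions of the brighter probe, at columns 10 and 18, with fold changes of 1.05 and 1.45. Over the 11 positions with no outlier spot on any array it was lower at 9, with a median fold change of 0.764. The median was 0.800 over the 6 positions in the upper rows of the array and 0.652 over the 10 in the lower rows. The brighter probe held 4 of the 6 upper positions and 4 of the 10 lower ones. The dimmer probe, with the lower fold change (0.547 against 0.830), thus filled most of the lower positions. These 2 medians therefore mix rows with probes, and the rows were not compared within a probe. For miR-21-5p the MG mean was lower at 5 of 16 positions, with a median fold change of 1.07. Over the 10 positions of miR-21-5p with no outlier spot on any array it was lower at 5, with a median fold change of 1.01. Spots of 1 array share its RNA and are not replicates of a condition. With the median over spots in place of the mean, a choice made after the spots had been seen, miR-31-5p had a fold change of 0.730 and was not called (limma, adjusted p = 0.0727).

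**Figure D3:**
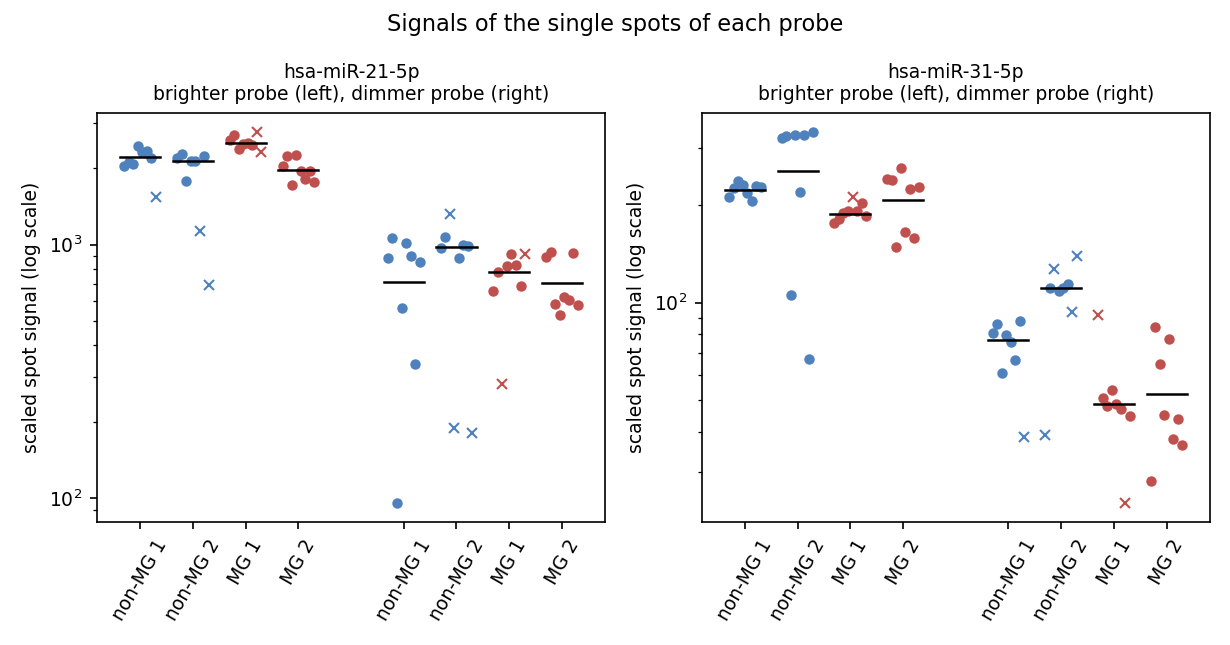
Scaled signal (log axis) of each spot of miR-21-5p (left panel) and miR-31-5p (right panel), by probe and array, with crosses for spots marked as outliers and black lines for the mean of the others. Most spots of the dimmer miR-31-5p probe are lower on the MG arrays, and the brighter probe has spots as low as 66.9 on non-MG replicate 2.

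The other arms of both hairpins were also on the array, and they give a second reading of the same precursors. hsa-miR-31-3p, the arm opposite miR-31-5p, had scaled signals of 83.9 and 72.9 in the non-MG replicates, against 73.1 and 57.0 in the MG replicates. MG replicate 1 lay just above non-MG replicate 2, so the groups overlapped. Its fold change was 0.825, with a log2 value of -0.28 ± 0.15 (SE) and an adjusted p = 0.191 by limma. The signal of miR-31-5p was 1.90 and 2.66 times that of miR-31-3p on the non-MG arrays. On the MG arrays this ratio was 1.72 and 2.42. The ratios of the groups interleaved (p = 0.667, two-sided exact permutation test), so a change in the balance of the arms was not detectable.

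hsa-miR-21-3p, the arm opposite miR-21-5p, was near the limit of detection. Its unscaled signals were 7.90 and 8.67 in the non-MG replicates, against 8.35 and 6.73 in the MG replicates. It was detected on 4 of 4 arrays through 1 of its 2 probes and did not reach the minimum of 50 for testing. On MG replicate 2, 0 of its 16 spots were well above background.

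Across the 4 arrays, the miRNAs whose mean-centred log2 signals lay closest to those of miR-31-5p, by root mean square difference, were miR-92a-3p (0.0419), miR-17-5p (0.0710) and miR-221-3p (0.0802). The scaled signals of miR-92a-3p were 191 and 236 in the non-MG replicates, against 147 and 156 in the MG replicates, so it followed the order of miR-31-5p on all 4. For miR-21-5p the closest were miR-96-5p (0.0506), miR-923 (0.0769) and miR-16-5p (0.0859). These rankings are over 56 miRNAs and only 4 arrays that share 1 slide.

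Other miRNAs raised in colorectal tumours stood beside the members. Of a list of 14, 12 were detected on at least 1 array and 6 reached the signal minimum. Of these 6, limma called 2 lower in MG cells and 0 higher, beside 8 lower (14.0%) and 14 in either direction (24.6%) of all 57. At an unadjusted p under 0.05 the counts were 3 of the 6 and 19 of the 57. The median log2 change of the 6 was -0.29, compared with -0.08 over all 57. miR-92a-3p, a member of the miR-17-92 cluster that promotes proliferation, had a fold change of 0.713 (adjusted p = 0.0125, limma). miR-17-5p, of the same cluster, had 0.748 (adjusted p = 0.0313, limma), so both calls came from that cluster. The 6 also include miR-19b-3p and miR-20a-5p of that cluster, so their median is not that of 6 unrelated miRNAs. The list was chosen with earlier results of these data known. The smallest change was that of miR-96-5p, with 0.945 (adjusted p = 0.790). Without non-MG replicate 2 none of the 6 was called, and only 1 was at an unadjusted p under 0.05 (limma).

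**Figure D4:**
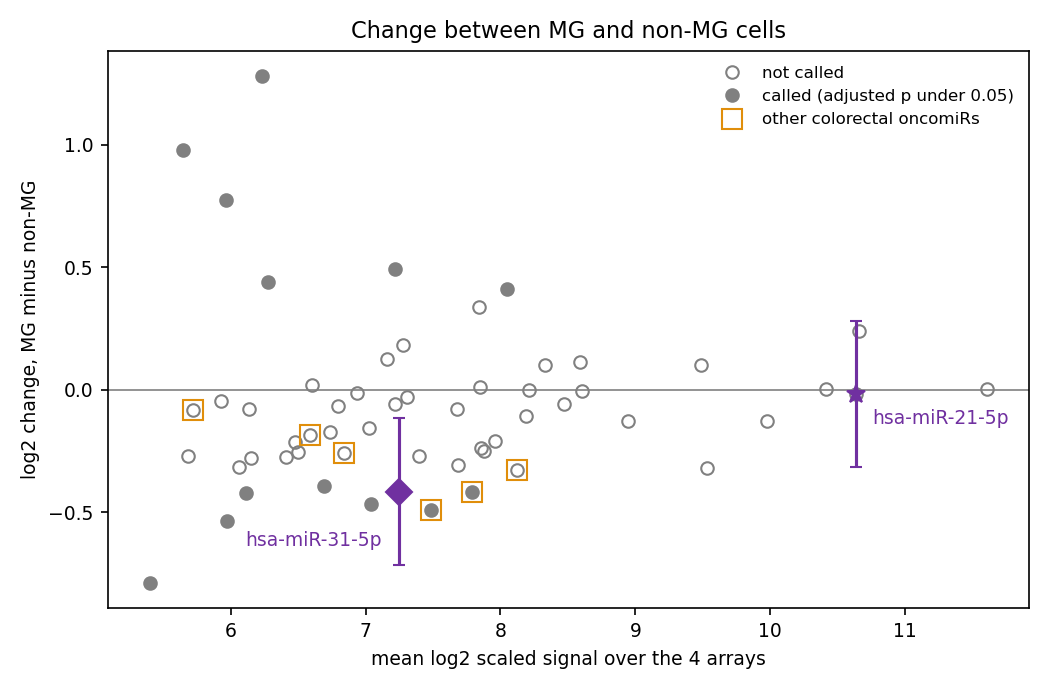
Log2 change of MG minus non-MG against mean log2 scaled signal of the 57 miRNAs tested, with filled points for limma calls, orange squares for the 6 other colorectal oncomiRs and purple symbols with 95% confidence intervals for the members. miR-21-5p sits near 0 at the right end, and the interval of miR-31-5p, from -0.71 to -0.12, stays below 0.

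**Figure D5:**
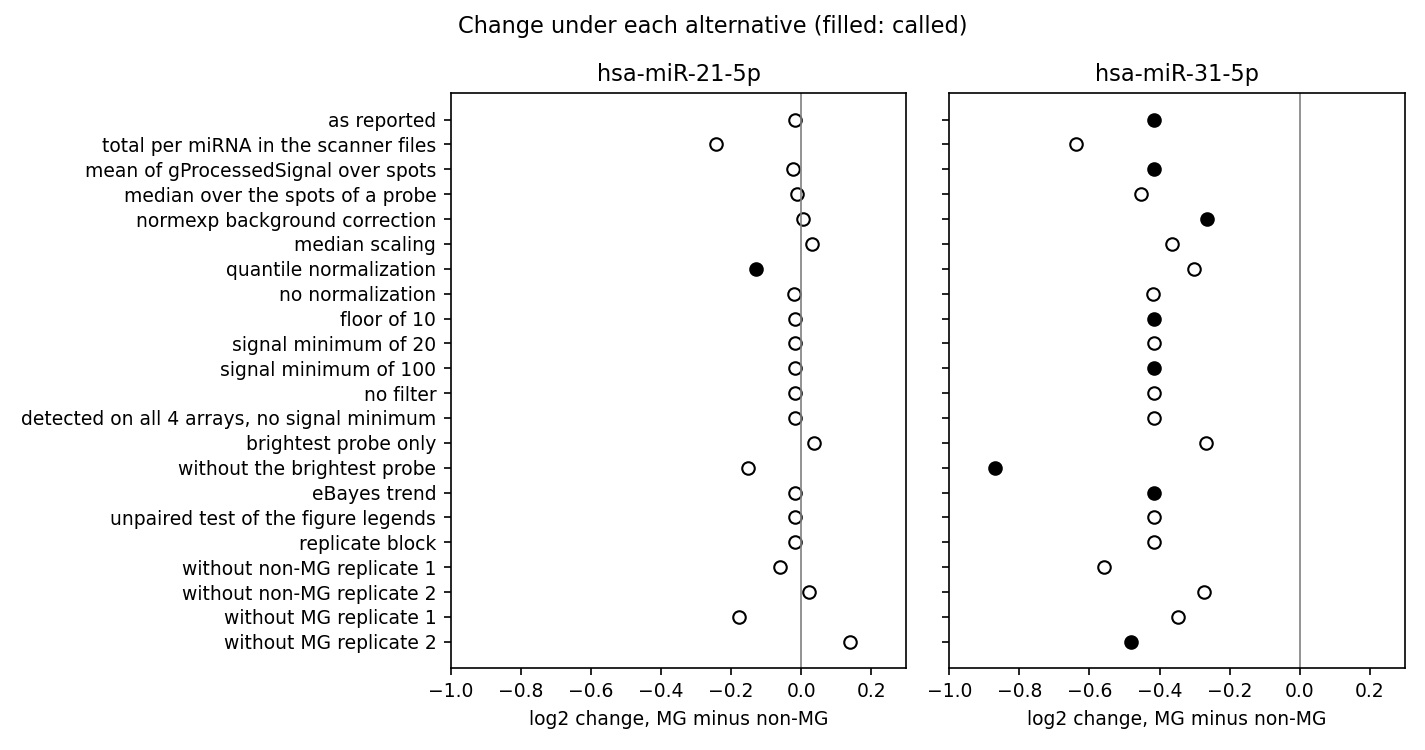
Log2 change of MG minus non-MG for miR-21-5p (left) and miR-31-5p (right) as reported and under each of the 21 alternatives, filled where limma or the named test called it. The points of miR-21-5p scatter on both sides of 0 from -0.24 to 0.14, and those of miR-31-5p run from -0.87 to -0.27 and are filled in some settings only.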

How the data were processed

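miRNA expression was measured on 4 arrays, 2 of MG and 2 of non-MG cells. The authors deposited Agilent Feature Extraction 10.7.1.1 output, with background-subtracted intensity per spot, probe and miRNA, and a table of 1 intensity per miRNA and array, neither normalized between arrays. The signal was taken from this table, whose 142 detected miRNAs matched the summed probes above 3 times their error. Scaling used the 75th percentile of miRNAs detected on all arrays, with a floor of 1, then log2. The 57 human miRNAs that reached 50 before scaling on any array entered limma 3.58.1 in R 4.3.3, two-sided, with Benjamini-Hochberg adjustment, a threshold of 0.05 and no block. Scripts ran in Python 3.11.15 with scipy 1.17.1 and were tested on simulated data. Fold changes are ratios of geometric means. Alternatives changed the signal summary, background correction, scaling, floor, filter, probes, variance model, test, block and arrays used. The labels describe a protocol for labelling complementary RNA. The members and lists were chosen with earlier results of these data known. Named miRNAs are the members, their other arms, their neighbours in mean signal and the highest entries, the 3 most alike in pattern, and list members by count with examples. Sequences and gene overlaps come from RefSeq (GRCh38.p14), which held 2 of the 4 mature arms. The scanner files name build hg19, whose coordinates were not used.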

Additional observations from a re-analysis of the deposited data

How the results depend on the processing

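With 2 arrays per group and 1 slide, the pooled spread limits what could be seen, and the call of miR-31-5p depended on the processing. Its log2 change was negative in all 21 alternatives. That sign was fixed in advance where only the filter, floor, variance model, test or block changed, or 1 array was left out. The call was kept in 7 of the 21 and lost in 14. It was lost with the scanner total (-0.64, adjusted p = 0.101), the median over spots (-0.45, adjusted p = 0.0727, chosen after seeing the data), median scaling (-0.37, adjusted p = 0.0584), quantile normalization (-0.30, adjusted p = 0.0803), the brightest probe only (-0.27, adjusted p = 0.190) and no normalization (-0.42, adjusted p = 0.0622), all by limma. With the value unchanged at -0.42, it was also lost with a minimum of 20 (adjusted p = 0.0547), no filter (adjusted p = 1.0) and detection on all 4 arrays (adjusted p = 0.139), and in the unpaired test of the figure legends (adjusted p = 0.304). Under those 3 filters more miRNAs were tested, and the unadjusted p by limma also rose, from 0.00678 to 0.0117, 0.0609 and 0.0301. Leaving out 1 array at a time, with the lone array assumed to vary like the other group, gave -0.56 to -0.27, and the call was kept only without MG replicate 2. For miR-21-5p, 5 alternatives turned the sign of a value near 0: normexp gave 0.0063, median scaling 0.031 and the brightest probe only 0.035, and leaving out 1 array gave -0.18 to 0.14, positive without non-MG replicate 2 or MG replicate 2. Quantile normalization called it lower (-0.13, adjusted p = 0.00572, limma), but its ranks were equal within each group, so that p-value reflects no spread of miR-21-5p. The scanner totals of both members equalled their signals used elsewhere within rounding, so under that setting their values moved only through the scaling of the arrays. The causes of the remaining changes were not tested.

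The 14 miRNAs called became 0 with the scanner total (28 at an unadjusted p under 0.05), 9 with the median over spots, 6 without normalization, 9 with a minimum of 100, 1 with no filter, 0 with the unpaired test (7 unadjusted), and 3 to 11 without 1 array. The 2 calls among the other oncomiRs became 0 with the scanner total, no filter and the unpaired test, 1 with the median over spots, median scaling, quantile normalization, no normalization and detection on all 4 arrays, and 0 to 1 without 1 array. The scanner total moved the mean rank of miR-21-5p from 2.5 to 2.75 and its mean share from 8.04% to 6.63%, and those of miR-31-5p from 30 to 38.75 and from 0.777% to 0.643%. The log2 ratio of the members kept its direction in 12 of 12 alternatives (0.17 to 0.72), which was fixed in advance with the block or without 1 array. The groups of this ratio overlapped in 3 of the 7 that kept all arrays and gave a test. miR-31-3p stayed without a call in 18 of 18.

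Deviations of same-numbered arrays correlated with 0.481 over the 57 miRNAs, but the labels name no shared day or batch, and with 2 pairs the numbers were not taken as a pairing. With the replicate block, miR-31-5p kept -0.42 but lost its call (adjusted p = 0.0511, limma), 8 miRNAs were called, and 1 of the other oncomiRs. The 75th percentile over all miRNAs was not run, since it was the value of an undetected miRNA on each array, nor was the slide as a block, since there was 1 slide.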

Other observations

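The total per miRNA that the scanner files give was not alike for the arms of MIR21. For miR-21-3p it was 56.7 and 71.9 in the non-MG replicates, against 40.4 and 38.9 in the MG replicates, while its 1 detected probe gave 7.90, 8.67, 8.35 and 6.73. For miR-21-5p and for both arms of MIR31, the total equalled the sum of the detected probes within rounding. The cause was not tested.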
